A study of Homo sapiens with 12 samples.

Results

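CD96 is a receptor of the immunoglobulin superfamily, and the genes described here are CD96 and its family of partners: PVR, NECTIN1, NECTIN2, NECTIN3 and CD226. They were taken as a list of names. CD96 was chosen by its difference between LSD2 shRNA and scramble arrays, the highest of all probe sets, and the others because their products bind CD96, CD226 or each other. All 6 genes were measured, by 12 of the 19064 probe sets that name a single gene (11963 genes in all). CD96, NECTIN2, NECTIN3 and CD226 had 1 probe set each, NECTIN1 had 3 and PVR had 5.

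Expression was measured on 12 arrays of RNA from cells labelled MDA-MB-231, a mesenchymal-like line long established from a human breast cancer, in 4 groups of 3 biological replicates. One pair of groups carried a scramble shRNA or an shRNA against LSD2, the histone demethylase encoded by KDM1B, and the other pair a vector for eGFP/Flag alone or for LSD2/eGFP/Flag. All 4 groups were stable transfectants grown with 800 ug/ml G-418, which kills untransfected cells. The sources used here do not give the promoters of the constructs, or say whether each line was a clone or a pool. A difference between groups is therefore also a difference between lines. The p-values rest only on the spread between replicate arrays within groups, pooled over the 4 groups and moderated across probe sets, not on a spread between lines.

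CD96 (also called Tactile) is found mainly on T cells and natural killer (NK) cells, where it binds PVR (CD155) on other cells and can also bind nectin-1. CD226 (DNAM-1) is an activating receptor for PVR and nectin-2 on the same lymphocytes, and TIGIT is an inhibitory one. Nectins are adhesion molecules that join neighbouring cells by binding each other, and their tails attach to actin through afadin. NECTIN3 protein binds nectin-1, nectin-2 and PVR on the opposite cell. Epithelial and tumour cells usually carry the nectins and PVR, and CD96 and CD226 are usually read as lymphocyte genes.

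The promoter sequences of the 3 genes with the largest differences are shown as a description. Whether the sequences bear on the expression results below was not tested. They come from RefSeq (GRCh38.p14, plus strand, 250 bases before to 50 bases after the start), which held windows for 5 of the 6 genes, and capitals mark CG dinucleotides.
CD96, chr3:111541947-111542246: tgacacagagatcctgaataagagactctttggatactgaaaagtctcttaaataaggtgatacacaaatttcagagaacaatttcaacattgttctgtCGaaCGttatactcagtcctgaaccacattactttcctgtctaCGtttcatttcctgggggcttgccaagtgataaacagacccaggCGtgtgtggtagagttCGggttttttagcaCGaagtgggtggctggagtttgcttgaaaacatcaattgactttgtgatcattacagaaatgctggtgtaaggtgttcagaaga
NECTIN3, chr3:111071566-111071865: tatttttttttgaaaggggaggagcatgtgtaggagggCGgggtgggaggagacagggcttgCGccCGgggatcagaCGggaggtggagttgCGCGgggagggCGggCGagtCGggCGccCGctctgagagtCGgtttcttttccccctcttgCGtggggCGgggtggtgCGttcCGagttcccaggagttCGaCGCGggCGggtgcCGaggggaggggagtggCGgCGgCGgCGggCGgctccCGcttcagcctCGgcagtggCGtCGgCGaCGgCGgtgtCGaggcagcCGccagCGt
PVR, chr19:44643660-44643959: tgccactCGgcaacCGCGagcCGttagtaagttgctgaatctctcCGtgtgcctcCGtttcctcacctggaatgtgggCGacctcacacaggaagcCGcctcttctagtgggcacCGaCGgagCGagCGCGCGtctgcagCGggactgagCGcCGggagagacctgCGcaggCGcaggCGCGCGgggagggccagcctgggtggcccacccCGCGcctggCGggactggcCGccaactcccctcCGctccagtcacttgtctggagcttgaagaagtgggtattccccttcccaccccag
The CD96 window held 6 CG dinucleotides and was 41% G or C, against a median of 14 CG and 58.7% over 35116 windows of the same length. NECTIN3 had 36 CG, PVR had 27 and NECTIN2 had 26, while the 2 windows of CD226 held 3 and 8. The windows of the 2 lymphocyte receptor genes thus lay below the median CG count and those of the 3 broadly expressed adhesion genes above it. Fewer CG than in the CD96 window were found in 33.7% of all windows, and than in those of CD226 in 18.2% and 39.3%. For NECTIN3, PVR and NECTIN2 these shares were 87.3%, 71.8% and 69.9%. The AP-1 motif (TGACTCA or TGAGTCA, the reverse complements of each other, so both strands) was in none of these windows and in 4.95% of all windows. The GC box GGGCGG, on either strand, occurred 5 times in the NECTIN3 window, 3 times in that of NECTIN2, once in 1 of the CD226 windows and 0 times in those of CD96 and PVR, and 45% of all windows held it.

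The arrays set limits on what can be compared. Normalization seems to have been run apart for the shRNA arrays (medians 6.80 to 6.87) and the vector arrays (medians 7.23 to 7.39), so no level was tested between the shRNA and the vector arrays. The arrays labelled LSD2/eGFP/Flag stood apart from all others, with a correlation across probe sets of 0.908 to 0.912 with their own control, against 0.991 to 0.994 between LSD2 shRNA and scramble. The control eGFP/Flag arrays correlated with the scramble arrays at 0.938 to 0.945. Of 14 genes listed as markers of MDA-MB-231 cells, 13 fell and 0 rose in the LSD2/eGFP/Flag arrays, with a median of -5.61 log2 units. Of all genes 25.8% fell and 30.8% rose there. Most of the listed markers were thus much lower in those arrays. The list was chosen with earlier results of these data known, so this describes the arrays and is no independent test of their identity. In the other 3 groups the median marker lay between percentiles 95.9 and 96.9 of its array, and in the LSD2/eGFP/Flag arrays between 30.6 and 34.2. No probe set named KDM1B (0 of 19064), so the level of the targeted gene was not checked in any group. What part these line differences have in the vector results was not tested.

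CD96, the T and NK cell receptor, differed widely between the groups of each comparison. Its deposited log2 values were 4.69, 5.16 and 4.82 in the scramble arrays and 9.12, 9.08 and 8.54 in the LSD2 shRNA arrays. In the eGFP/Flag arrays CD96 stood at 10.05, 9.85 and 10.31, and in the LSD2/eGFP/Flag arrays at 4.67, 4.71 and 4.56. Within its own set of arrays, CD96 was thus high in the eGFP/Flag control and in the LSD2 shRNA line. It was low in the scramble control and in the LSD2/eGFP/Flag line, and the groups of neither comparison came near each other. In such bulk RNA, fewer cells that express a gene and less RNA per cell cannot be told apart. The LSD2 shRNA mean exceeded the scramble mean by 4.02 ± 0.16 log2 units (SE of the fit), the highest of all 19064 probe sets, which is the value CD96 was chosen for and is given without a test. In the vector arrays CD96 fell by 5.43 log2 units with the LSD2/eGFP/Flag vector (SE 0.16, limma adjusted p = 3.9e-12), from 10.07 ± 0.23 to 4.65 ± 0.07 (SD, n = 3). In that comparison 93 probe sets were lower by at least 5 log2 units, and CD96 ranked 68 from the lowest. CD96 was read by 206761_at alone.

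**Figure D1:**
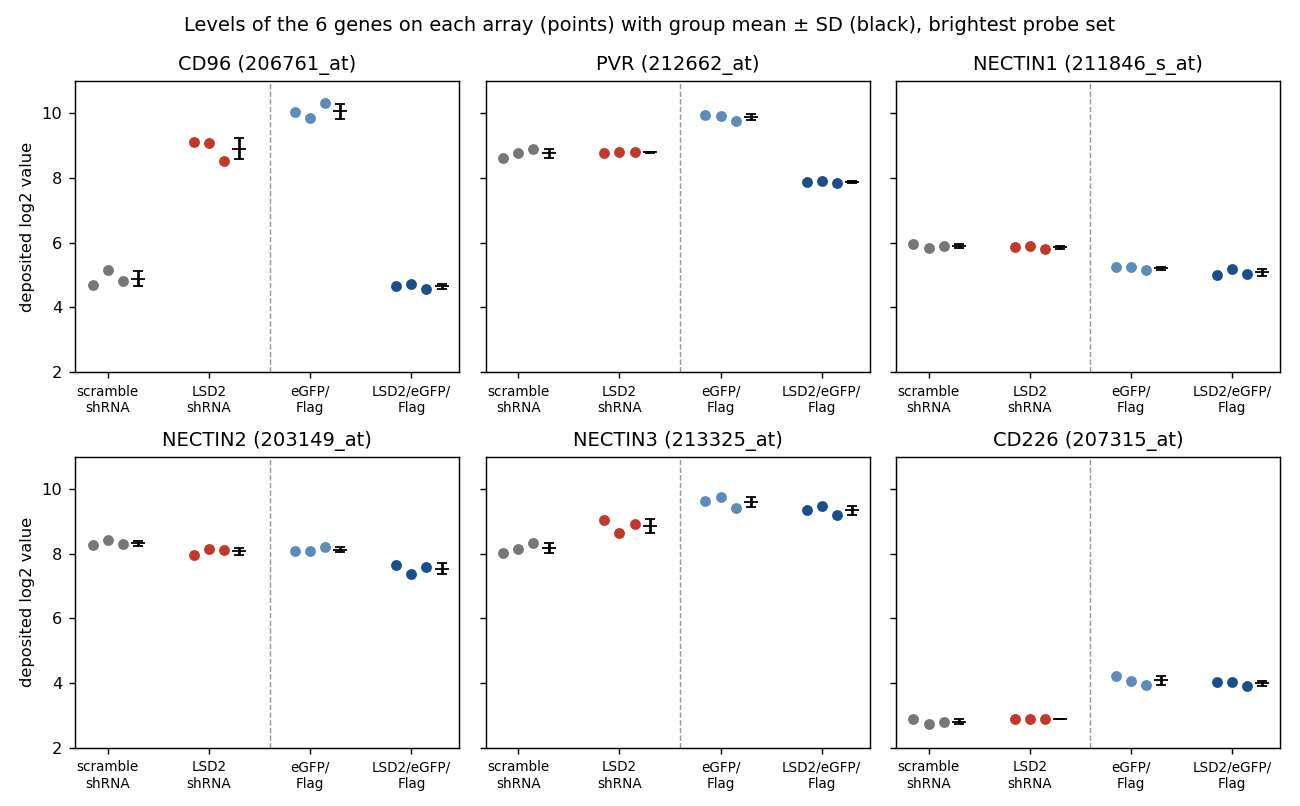
Deposited log2 values (vertical axis) of the brightest probe set of each gene on each array (points) with the group mean ± SD (black), in the 4 groups. The dashed line parts the shRNA arrays from the vector arrays, whose scales are not comparable. CD96 lies between 4.56 and 5.16 in the scramble and LSD2/eGFP/Flag arrays and between 8.54 and 10.31 in the LSD2 shRNA and eGFP/Flag arrays, and the other genes differ less.

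The place of a probe set within its own array does not depend on the scale of either set, and it gave the same order. CD96 lay at percentiles 18.1 to 24.4 of the scramble arrays, 72.9 to 79.6 of the LSD2 shRNA arrays, 78.1 to 82.6 of the eGFP/Flag arrays and 12.5 to 14.7 of the LSD2/eGFP/Flag arrays. After quantile normalization of all 12 arrays together, the CD96 means were 5.0 ± 0.23, 9.35 ± 0.33, 9.61 ± 0.21 and 4.48 ± 0.10 in the same order of groups (SD, n = 3). On that scale the eGFP/Flag control exceeded the scramble control by 4.61 log2 units, about as much as the LSD2 shRNA line did (4.35), and the eGFP/Flag and LSD2 shRNA lines were 0.27 apart, within 1 SD of the latter. On that scale the CD96 values of the 2 controls were thus as far apart as those of the shRNA line and its control. The controls also lie in different sets of arrays, so a difference of lines cannot be told apart from one of array sets. For the same contrast the probe sets of PVR, a single gene, ranged from 0.23 to -1.81. For NECTIN3 the controls differed by 0.60, again near the difference of the shRNA line from its control (0.74). For NECTIN2 (-0.91 against -0.24) and 216283_s_at of PVR (-1.81 against -0.24) the controls were further apart than the shRNA groups. Over the 10 probe sets other than those of CD96 and NECTIN3, the difference of the controls lay between -1.81 and 0.49. These values compare lines across both sets of arrays, with line and array set confounded, and were not tested. RMA gives no detection calls, so a low value of CD96 is not an absence, and no further probe set could be compared.

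PVR, the main ligand of CD96, is the member with most probe sets, and its brightest probe set differed in the vector arrays. By its brightest probe set (212662_at), PVR read 8.61, 8.78 and 8.90 in the scramble arrays and 8.78, 8.81 and 8.79 in the LSD2 shRNA arrays. The same probe set of PVR read 9.94, 9.92 and 9.77 in the eGFP/Flag arrays and 7.89, 7.90 and 7.86 in the LSD2/eGFP/Flag arrays. The shRNA groups overlapped entirely, whereas every LSD2/eGFP/Flag array lay below every eGFP/Flag array. PVR fell by 1.99 (SE 0.08, adjusted p = 9.3e-11, limma) with the LSD2/eGFP/Flag vector. The other 4 probe sets of PVR fell as well but by much less, 214444_s_at by 0.73 (adjusted p = 2.2e-05, limma), 216283_s_at by 0.67 (0.000112), 32699_s_at by 0.29 (0.0132) and 214443_at by 0.26 (0.0265). All 5 thus had the same direction, and 212662_at differed in size from each of the others by more than their standard errors of 0.08 to 0.11. Within those errors 214444_s_at and 216283_s_at were alike, as were 32699_s_at and 214443_at. Leaving out 1 array ended the call of 214443_at in 3 cases, eGFP/Flag replicate 1 (adjusted p = 0.0969, limma), its replicate 3 (0.0712) and LSD2/eGFP/Flag replicate 2 (0.102). It ended that of 32699_s_at in 2 cases, eGFP/Flag replicate 2 (0.0649) and LSD2/eGFP/Flag replicate 1 (0.055). In the shRNA arrays the 5 probe sets of PVR differed by 0.03 to -0.25 log2 units.

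NECTIN2, which binds CD226 and takes part in cell junctions, fell with the LSD2/eGFP/Flag vector. Its only probe set read 8.26, 8.41 and 8.30 in the scramble arrays and 7.96, 8.16 and 8.11 in the LSD2 shRNA arrays, a difference of -0.25 ± 0.09 between groups that did not overlap, given as a description with no test. The NECTIN2 values were 8.09, 8.08 and 8.21 in the eGFP/Flag arrays and 7.65, 7.36 and 7.6 in the LSD2/eGFP/Flag arrays. There NECTIN2 fell by 0.59 (SE 0.09, adjusted p = 7.0e-05, limma), and again no array of one group reached the other.

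NECTIN3, like the other nectins an adhesion molecule, was higher in the shRNA line. It read 8.02, 8.16 and 8.34 in the scramble arrays and 9.05, 8.64 and 8.91 in the LSD2 shRNA arrays. These groups did not overlap, and their means of 8.17 ± 0.16 and 8.86 ± 0.21 (SD, n = 3) differed by 0.69 ± 0.12 log2 units. In the vector arrays NECTIN3 stood at 9.62, 9.77 and 9.42 with eGFP/Flag and at 9.35, 9.49 and 9.21 with LSD2/eGFP/Flag. These groups overlapped, and the difference of -0.26 ± 0.12 was not called (adjusted p = 0.102, limma), although it was without eGFP/Flag replicate 3 (-0.35, adjusted p = 0.0432). NECTIN3 thus had the sign of CD96 in both comparisons, at a much smaller size and with the vector difference not called. The same signs were seen for CD226 (0.07 and -0.09) and for 212662_at of PVR (0.03 and -1.99).

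NECTIN1, a junction protein and the other nectin that CD96 can bind, was low on all arrays. Its 3 probe sets ranged from 4.78 to 5.95 in the shRNA arrays and from 4.99 to 5.53 in the vector arrays. In the shRNA arrays their differences were -0.04, -0.08 and -0.12, with overlapping groups. In the vector arrays they were -0.14 ± 0.07 (211846_s_at), 0.18 ± 0.08 (211845_at) and 0.05 ± 0.09 (208455_at), with overlapping groups and adjusted p from 0.0746 to 0.686 (limma). The first was called without LSD2/eGFP/Flag replicate 2 (adjusted p = 0.0342), the second without eGFP/Flag replicate 1 (0.0142), in opposite directions, and the third changed sign on equal medians (-0.01).

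CD226, the activating receptor that competes with CD96 for PVR, stayed at the bottom of every array. Its log2 values were 2.74 to 2.88 in the shRNA arrays and 3.90 to 4.23 in the vector arrays, at percentiles 2.1 to 8.4. Its differences of 0.07 ± 0.08 with the shRNA and -0.09 ± 0.08 with the LSD2/eGFP/Flag vector (adjusted p = 0.388, limma) were about the size of their standard errors. No difference of the size of that of CD96 was seen for CD226, and at so low a signal a change may be missed.

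**Figure D2:**
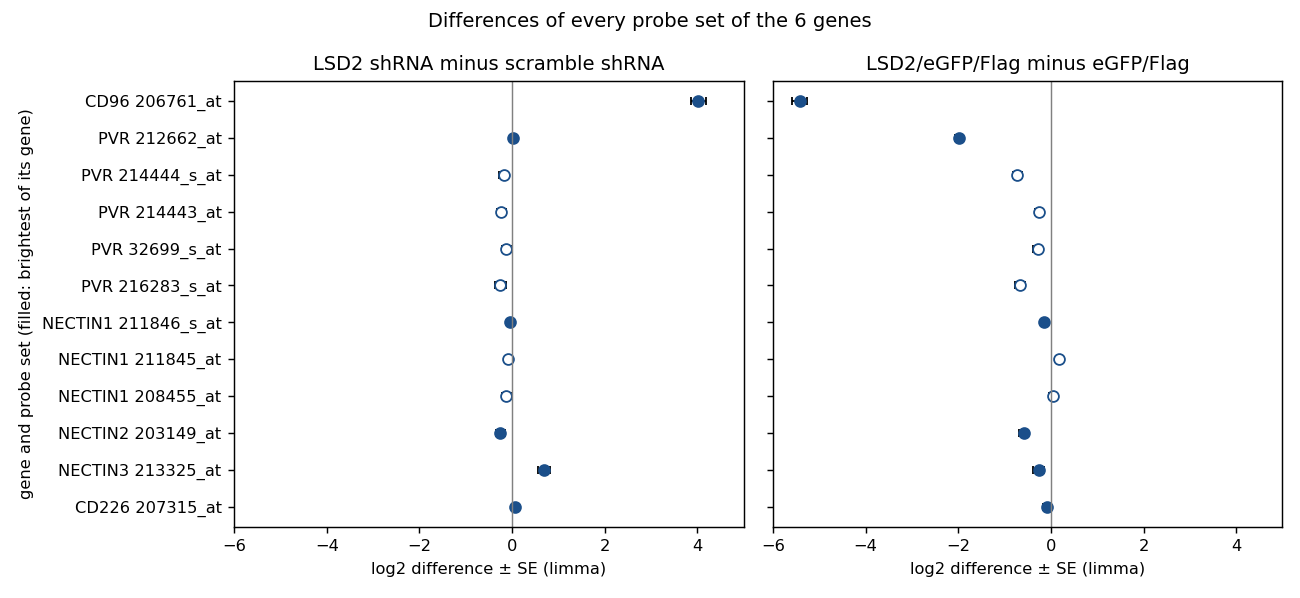
Log2 differences ± SE (horizontal axis) of all 12 probe sets of the 6 genes in both comparisons, with the brightest probe set of each gene filled. CD96 stands at 4.02 on the left and -5.43 on the right, and the 5 probe sets of PVR spread from -0.26 to -1.99 on the right.

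Counted over probe sets, 7 of the 12 (58.3%) were called in the vector comparison, all lower, against 54.6% of all probe sets tested (26.1% lower and 28.5% higher), so the share called was near the background. On equal medians the calls over all probe sets were 4782 higher and 5603 lower, in place of 5429 and 4975. Of these 7, 5 belong to PVR. The groups of the same 7 did not overlap (58.3%), against 59.2% of all probe sets (30.3% higher and 28.9% lower). In the shRNA comparison 8.73% of all probe sets were called, 750 higher (3.93%) and 914 lower (4.79%), or 917 and 688 on equal medians. Leaving out 1 array lowered these 1664 calls to 929 (scramble replicate 1), 933 (LSD2 shRNA replicate 1) or 1030 (scramble replicate 2). In this comparison, which chose CD96, the groups of 4 of the 12 probe sets (33.3%) did not overlap, those of CD96, NECTIN3, NECTIN2 and 216283_s_at of PVR, against 26.2% of all probe sets (11.7% higher and 14.5% lower).

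No T or NK cell marker measured differed as CD96 did with the LSD2 shRNA. Of 31 measured T and NK cell markers, 0 rose and 0 fell with the LSD2 shRNA (limma, and 0 at an unadjusted p under 0.05), with differences between -0.13 and 0.19 and a median of 0.02, against a median of -0.005 over all genes and 9.82% of genes called (4.66% higher and 5.17% lower). The mean log2 value of these markers was 5.28 to 5.35 in the scramble arrays, 5.28 to 5.37 in the LSD2 shRNA arrays, 5.48 to 5.57 in the eGFP/Flag arrays and 5.53 to 5.55 in the LSD2/eGFP/Flag arrays. The T cell receptor subunit gene CD3E read 6.70 and 6.72 in the scramble and LSD2 shRNA groups, the leukocyte phosphatase PTPRC 2.99 and 3.02, and the cytotoxic granule gene NKG7 3.82 and 3.89. In the vector comparison 2 of the 31 rose, IL2RB by 0.43 ± 0.10 and TBX21 by 0.35 ± 0.10, and 2 fell, CD8A by 0.43 and GNLY by 0.24, against 56.6% of all genes called (30.8% higher and 25.8% lower). TBX21 lost its call without LSD2/eGFP/Flag replicate 1, and GNLY did so in 3 cases, eGFP/Flag replicates 1 and 3 and LSD2/eGFP/Flag replicate 2. The other probe set of GNLY differed by 0.09.

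The other genes of the receptor and ligand axis were counted next. Of 11 measured genes, among them the PVR family receptors PVRIG and CRTAM, the CRTAM ligand CADM1 and kinases and adaptors of the receptors, 0 rose and 0 fell with the LSD2 shRNA (limma, 1 at an unadjusted p under 0.05), with a median of 0.07 and differences from -0.18 to 0.23, against 9.82% of all genes called. TIGIT and NECTIN4 were not analysed here. With the LSD2/eGFP/Flag vector CADM1, a nectin-like adhesion protein, rose by 3.15 ± 0.13 from 5.76 to 8.92 (adjusted p = 1.7e-10, limma), and its 2 other probe sets differed by 2.65 and 6.56. The kinase FYN rose by 0.74 ± 0.10 (its other probe sets differed by -0.18 and 0.78) and the adaptor GRB2 fell by 0.31, and the other 8 were not called, with a median over the 11 of 0.03, against 56.6% of all genes called. Without eGFP/Flag replicate 3 the count of 3 called genes became 5.

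Ligands of other NK and T cell receptors, which a tumour cell shows beside PVR and the nectins, were called in both directions with the LSD2/eGFP/Flag vector. Of 21 measured, 4 rose and 6 fell, against 30.8% and 25.8% of all genes, with a median of -0.08, and the counts are read no further. CLEC2B, a ligand of an NK cell receptor, fell by 6.67, from 10.93 to 4.25 (adjusted p = 4.4e-14, limma), the NKG2D ligands MICB and MICA fell by 1.70 and 1.65, and the 4-1BB ligand TNFSF9 rose by 0.76. With the LSD2 shRNA 0 of the 21 were called by limma, against 9.82% of all genes (4 at an unadjusted p under 0.05), and without scramble replicate 3 there was 1, with a median of 0.00.

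Junction genes, to which nectins connect through afadin, showed no common direction. Of 26 measured, 2 rose and 2 fell with the LSD2 shRNA, with a median of -0.02, against 4.66% and 5.17% of all genes. The catenin CTNNB1 rose by 0.46 ± 0.10 and the small GTPase RAP1A by 0.32 ± 0.09, the cadherin CDH3 fell by 0.73 and the catenin CTNNA1 fell by 0.32. Of these 4 calls, those of CTNNA1 and RAP1A ended when LSD2 shRNA replicate 1 or 3, or scramble replicate 1 or 2, was left out, and that of RAP1A also for scramble replicate 3. Afadin itself, AFDN, differed by -0.08 and was not called. With the LSD2/eGFP/Flag vector 8 rose and 11 fell, with a median of -0.09, against 30.8% and 25.8% of all genes. LMO7, an afadin-binding protein, fell by 2.56, CTNNA1 fell by 1.32, JUP rose by 1.85 and the mesenchymal cadherin CDH2 rose by 1.73, while AFDN was again not called (-0.09). The other probe set of CDH2 differed by 4.70, and the 3 others of CTNNA1 by -1.45 to -0.24.

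Other adhesion molecules of the immunoglobulin superfamily gave a like mixture. With the LSD2 shRNA 2 of 26 rose, the endothelial adhesion gene PECAM1 by 0.92 ± 0.19 and ICAM2 by 0.42 ± 0.07, and 2 fell, the virus receptor CXADR by 0.49 and the laminin receptor BCAM by 0.36, with a median of 0.00, against 4.66% and 5.17% of all genes. The second probe set of the neural adhesion gene L1CAM, named after its value was seen, differed by -2.45, while its brightest differed by -0.01 and was not called. PECAM1 was not called without LSD2 shRNA replicate 1, CXADR and BCAM without that array or scramble replicate 1 or 2, and BCAM without LSD2 shRNA replicate 3. With the LSD2/eGFP/Flag vector 11 rose and 6 fell, with a median of 0.07, against 30.8% and 25.8% of all genes. The neural adhesion genes NCAM1 (5.50 ± 0.13) and NRCAM (3.65 ± 0.17) and the junction gene JAM3 (3.71 ± 0.13) rose, and ICAM2 fell by 4.06. The 3 further probe sets of NCAM1 differed by -0.10 to 0.20, the other of NRCAM by 0.17 and the other of ICAM2 by -1.95.

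**Figure D3:**
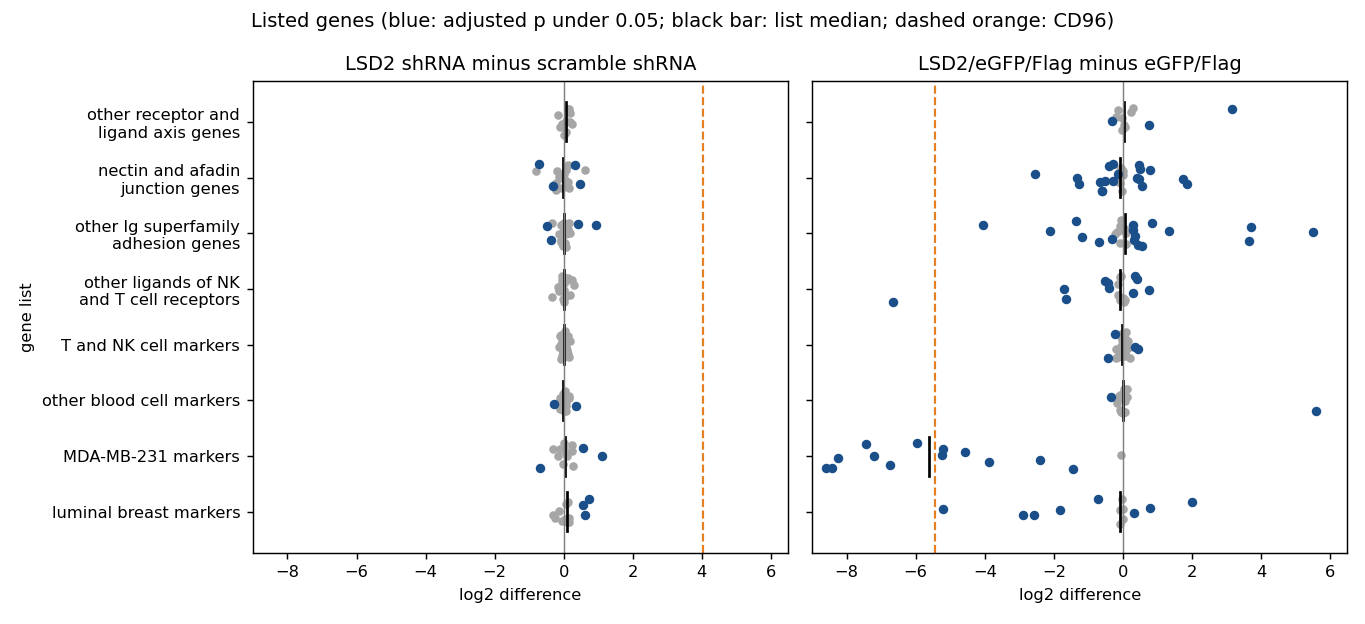
Log2 differences (horizontal axis) of the measured genes of each list in both comparisons, in blue where the adjusted p was under 0.05, with the list median (black bar) and CD96 (dashed line). The 31 T and NK cell markers lie between -0.13 and 0.19 on the left, where CD96 is at 4.02, and the MDA-MB-231 markers have a median of -5.61 on the right.

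CD96 and NECTIN3 are next to each other on chromosome 3, with 0 protein-coding genes between them in the RefSeq gene table, and PVR and NECTIN2 lie close together on chromosome 19, with 5 between them. NECTIN1 is on chromosome 11 and CD226 on chromosome 18. The measured genes around each pair were therefore compared. Of the 29 genes other than NECTIN3 among the 15 on each side of CD96, 1 rose with the LSD2 shRNA, NXPE3 by 0.45 ± 0.12, and 0 fell (8 at an unadjusted p under 0.05), with differences from -0.25 to 0.57. The call of NXPE3 was lost without scramble replicate 1, 2 or 3, without LSD2 shRNA replicate 1 or 3, and with the replicate number as a block. On all of chromosome 3, 89 of 655 genes rose (13.6%) and 7 fell, and of all genes 4.66% rose, beside 3.45% of these 29. Chromosome 11, that of NECTIN1, was uneven the other way, with 16 of 732 genes higher (2.19%) and 100 lower (13.7%). NECTIN3 itself differed by 0.69. The measured genes next to the pair, DPPA4 and MORC1 before NECTIN3 and ZBED2 and ABHD10 after CD96, differed by 0.08, 0.05, -0.00 and -0.08. The 2 next ones on either side, TRAT1 (-0.20), DZIP3 (0.24), TAGLN3 (0.15) and C3orf52 (-0.01), and CD200 (0.00) were not called either.

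Around PVR the vector comparison showed a run of lower genes on one side. Of the 15 measured genes before PVR, 14 of which carry ZNF symbols of Kruppel-type zinc finger genes, 14 fell and 0 rose with the LSD2/eGFP/Flag vector, with a median of -1.46. Their groups of 3 arrays did not overlap in 13 cases, against 59.2% of all probe sets. ZNF45 fell by 2.67 (adjusted p = 2.3e-11, limma), ZNF227 fell by 2.26 and ZNF222 fell by 1.82. ZNF180, the last measured gene before PVR, fell by 1.73, while ZNF221 was at -0.00. Of the 15 measured genes after PVR, NECTIN2 among them, 5 rose and 6 fell, with a median of -0.01. On all of chromosome 19, 204 of 810 genes rose and 215 fell (26.5%). With the LSD2 shRNA, 1 of the 15 genes before PVR rose, ZNF45 by 0.37, and 1 fell, KCNN4 by 0.79, against 4.66% and 5.17% of all genes. Both lost the call without scramble replicate 1, among others. The zinc finger genes have closely related sequences, so their probe sets may share signal, which was not tested. Around NECTIN1 5 of 30 rose and 5 fell, and around CD226 10 of 30 rose and 6 fell in the vector comparison. Of all genes 30.8% rose and 25.8% fell there, and these counts are read no further.

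**Figure D4:**
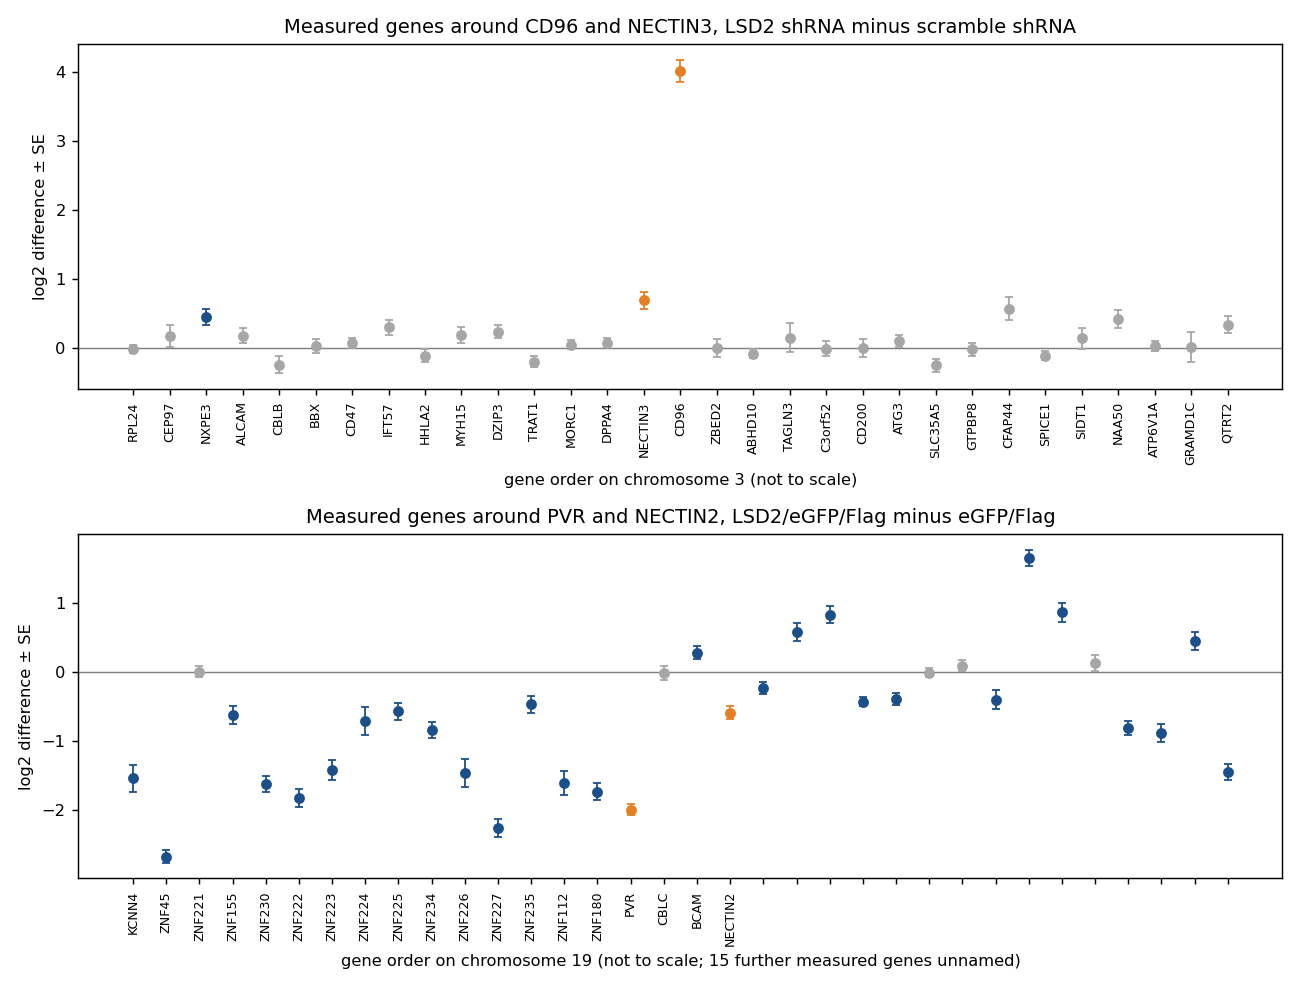
Log2 differences ± SE (vertical axis) of measured genes in chromosomal order (horizontal axis, not to scale), around CD96 and NECTIN3 in the shRNA comparison (top) and around PVR and NECTIN2 in the vector comparison (bottom), with these 4 genes in orange and others in blue where the adjusted p was under 0.05. CD96 stands at 4.02, NECTIN3 at 0.69 and the other 29 neighbours of CD96 between -0.25 and 0.57, and 14 of the 15 genes before PVR are lower, the lowest at -2.67.

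The genes with a pattern most like that of CD96 were found by the Pearson correlation over the 12 arrays, after the mean over the 6 shRNA or the 6 vector arrays was subtracted, among 316 genes with a range of at least 1 log2 unit over the shRNA arrays. They were G0S2, an inhibitor of fat breakdown (r = 0.991), the mesenchymal cadherin CDH11 (0.983), the activin antagonist FST (0.982), the transmembrane protein CDCP1 (0.979) and STEAP1 (0.979). CDH11 had the largest differences of these 5 in both comparisons, at 4.39 ± 0.14 in the LSD2/eGFP/Flag arrays against 11.63 ± 0.41 in the eGFP/Flag arrays, and at 5.79 ± 0.77 and 9.63 ± 0.60 in the scramble and LSD2 shRNA arrays. Of the other members, NECTIN3 had r = 0.73 with CD96, PVR 0.17 to 0.81 by probe set, NECTIN2 0.48, CD226 0.47 and NECTIN1 -0.67 to 0.43. The value of 0.81 was that of 212662_at of PVR, which differed by -1.99 in the vector arrays but by only 0.03 in the shRNA arrays. These correlations share arrays and groups and are given as a description.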

How the data were processed

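RNA of the 12 arrays was hybridised as biotin-labelled cRNA. The deposited log2 values of 22277 probe sets were made by the authors with RMA, per the submitters' processing notes; its version is not given in the sources used here. Gene names came from the annotation table of the array platform. 19064 named 1 gene, 1043 several and 2108 none, and 62 were controls. Of the 19064, 19052 matched the RefSeq gene table (GRCh38.p14). Differences were fitted with limma 3.58.1 in R 4.3.3 (lmFit and eBayes, a mean per group, all 12 arrays, 8 residual and 4.95 prior degrees of freedom), two-sided, with Benjamini-Hochberg adjustment over all 19064, and called at an adjusted p under 0.05. "Rose" and "fell" mean called. A gene of a list was read from its brightest probe set. The code was tested on simulated data. Percentiles are ranks within an array. The number of arrays limits the precision.

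The members, the 8 lists and the tests were chosen with earlier results of these data known. Named genes are all probe sets of the members, at most 4 called genes with the largest differences per list plus those that a small count rests on, the 5 measured genes on each side of CD96, and the 5 genes most like CD96. CD3E, PTPRC, NKG7, PVRIG, CRTAM, AFDN and the genes around PVR were named after their values were seen, as was the comparison of the 2 controls. The other settings tried were a replicate block, the compared groups alone, other normalizations and centring, filters, probe set rules, an intensity trend and leaving out each array.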

Additional observations from a re-analysis of the deposited data

How the results depend on the processing

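Over all 12 member probe sets, the differences kept their sign in the vector comparison in every setting except for 208455_at of NECTIN1 (-0.01 on equal medians, and from -0.01 to 0.09 with 1 array left out). The difference of CD96 was 3.92 to 4.35 in the shRNA comparison, highest with quantile normalization of all 12 arrays (4.35), and -5.14 to -5.54 in the vector comparison. With 1 array left out, it was -0.21 to -0.33 for 214443_at and -0.22 to -0.35 for 32699_s_at of PVR, -0.10 to -0.20 for 211846_s_at and 0.11 to 0.26 for 211845_at of NECTIN1, and -0.17 to -0.35 for NECTIN3, the calls changing as given above, and the cause was not tested. The count of probe sets called was 929 to 1348 in the shRNA and 9710 to 10011 in the vector comparison with 1 array left out (fewer samples), and 6824 in the vector comparison with brightest probe sets only (fewer probe sets tested). With the replicate block it was 1369 and 10173, and the block changed no call of a member in the vector comparison. The replicate numbers were not taken as pairs in the main fit. Deviations of same-numbered arrays correlated from 0.003 to 0.456 in the shRNA and from -0.156 to 0.149 in the vector arrays. Those of differently numbered arrays correlated from -0.445 to 0.095 and from -0.227 to 0.085. Whether same-numbered shRNA arrays were handled together was not tested. The counts over lists and neighbours kept within 1.5 times in 244 cases and moved by more in 32, 10 of them that of other blood cell markers with the shRNA (0 to 2). The count around PVR and NECTIN2 in the vector comparison was not among them (21 to 27 of 32 genes called, 15 to 21 of them lower). The lower part of the signal range, where NECTIN1 and CD226 lie, carries no detection calls and limits what can be said of them.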

Other observations

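Markers of other blood cells and of luminal breast cells were counted beside those of T and NK cells, with 9.82% of all genes called with the shRNA and 56.6% with the vector. Of 17 other blood cell markers, the stem cell factor receptor KIT rose by 5.60 ± 0.13 with the LSD2/eGFP/Flag vector, from 5.03 to 10.64, and CSF1R fell by 0.35, while 15 were not called. With the LSD2 shRNA the lysozyme gene LYZ rose by 0.35 and the monocyte gene CD14 fell by 0.29, and both calls were lost with the replicate block. The progenitor marker CD34 and FLT3, with which CD96 is found on some leukaemia cells, differed by 0.06 and 0.04 with the shRNA and were not called.

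Of 13 luminal breast markers, 3 rose with the LSD2 shRNA, namely FOXA1 (0.74 ± 0.13), XBP1 (0.61 ± 0.10) and EPCAM (0.57 ± 0.13, a call that needed LSD2 shRNA replicates 1 and 3 and scramble replicate 2), and 0 fell. With the LSD2/eGFP/Flag vector 3 rose and 5 fell, with the transcription factor GATA3 up by 2.00 ± 0.11 and KRT19 down, which fell by 5.22. Of the 14 MDA-MB-231 markers, TM4SF1 (1.10 ± 0.16) and NT5E (0.56 ± 0.13) rose with the shRNA and TGFBI fell by 0.70. The call of NT5E needed each of LSD2 shRNA replicates 1 and 2 and scramble replicates 1 and 3.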
